A study of Rattus norvegicus with 6 samples.

Results

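The genes described here are the axon guidance ligands and receptors of the rat, taken as every gene symbol of the semaphorin, plexin, neuropilin, ephrin, Eph receptor, Slit, Robo, netrin and Unc5 families in the deposited tables. Within these families the choice went by symbol alone and used no measured value. The families themselves were chosen with earlier results of these data known. The choice by symbol found 69 genes among 30076 symbols. Of these, 56 had a row of their own in all 6 libraries, and 46 reached a mean of 1 FPKM (fragments scaled to transcript length and to the mapped fragments of the library) and were tested among 10657 genes. The symbol pattern also takes in Unc50, a Golgi protein, and Unc5cl, a cytoplasmic protein, neither of which is a netrin receptor.

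The study compared manipulated with untreated male F344 rats aged 18 months. In the manipulated group, 3 rats received cranial osteopathic manipulation, a hands-on treatment of the head given by an osteopath, during 7 days under 1.5 to 3% isoflurane. In the untreated group, 3 rats were anaesthetised as well and not manipulated. From each rat a coronal section of 1 mm was cut in a brain matrix at the dorsal end of the prefrontal cortex, and its total RNA gave 1 library, called manipulated 4, 5 and 6 and untreated 1, 2 and 3. Each section is a mixture of cell types, in which fewer cells of a type and less RNA per cell cannot be told apart.

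Axon guidance molecules steer growing axons by attraction and repulsion, and many stay expressed in the adult brain, where they act at synapses, on dendritic spines and between neurons and glia. Semaphorins act through plexins, with neuropilins as ligand-binding partners for the secreted class. Ephrins on one cell bind Eph receptors on another and can signal into both cells, with ephrin-A ligands mainly binding EphA receptors and ephrin-B ligands mainly EphB receptors. Slits bind Robo receptors, and netrins bind DCC-type and Unc5 receptors.

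No tested axon guidance gene differed between manipulated and untreated rats past an adjusted p of 0.05 (limma on log2(FPKM + 1), Benjamini-Hochberg over all tested genes). All 4 tested EphA receptors, Epha4, Epha7, Epha8 and Epha10, nevertheless had less FPKM in every manipulated library than in every untreated one, by 0.62 to 0.99 on the log2 scale. The 4 tested EphB receptors lay between -0.21 and 0.15, and 1 of them, Ephb2, was also lower in every manipulated library. So were Plxna4, Plxnb3, Unc5a and Unc50. Of all tested genes, 23.7% were lower in every manipulated library. Among ligands, the semaphorins Sema4d, Sema4g and Sema5a were lower in every manipulated library, and the secreted semaphorin Sema3c was the 1 member higher in each of them.

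Most tested genes, members or not, had less FPKM in the manipulated group, so counts of members are given beside those of all genes. With an adjusted p under 0.05 there were 0 of 46 members, against 0.357% of all tested genes. With an unadjusted p under 0.05 there were 9 lower members, against 13.6% of all genes, and 0 higher members, against 1.46%. Groups that did not overlap gave 12 lower members, against 23.7% of all genes, and 1 higher member, against 1.08%. The median log2 fold change was -0.21 over the members and -0.36 over all tested genes, and 39 members were below 0 and 7 above. The count of 9 was 3 without manipulated 6, 2 without untreated 1 and 5 without untreated 3. The count of 1 was 4 without manipulated 6 and 3 without untreated 3. Leaving out a library cannot make separated groups overlap as deposited, so that count can only stay or rise. Shares of all genes without these libraries are not given.

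The shift lay in a few libraries. Over all tested genes the middle value was 4.01, 4.07 and 2.75 FPKM in manipulated 4, 5 and 6, against 5.50, 3.98 and 5.17 FPKM in untreated 1, 2 and 3. Manipulated 6 held the lowest value for 33 of the 46 members and untreated 1 the highest for 28. Median-ratio scaling divides each library by the median of its ratios to the geometric mean of the 6, with factors of 0.953, 1.00 and 0.651 in manipulated and 1.33, 0.960 and 1.26 in untreated libraries, and it brought the median of all tested genes to -0.0037.

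On the scaled values, 0 members passed an adjusted p under 0.05, against 0.291% of all genes (limma). Epha8, Sema4g and Plxna4 made up 3 lower members with an unadjusted p under 0.05, against 4.8% of all genes, and Sema3c, Ephb1, Ephb6, Unc5b, Ephb3 and Plxnd1 made up 6 higher members, against 6.46%. Groups that did not overlap gave 5 lower members, against 9.85%, and 10 higher members, against 10%. The members' median was 0.13, with 16 below 0 and 30 above, where 39 and 7 had been below and above as deposited. That median was 0.038 without manipulated 6, 0.0037 without untreated 3 and 0.079 without untreated 2. Without untreated 3, 5 lower members had a p under 0.05 and 9 lower members did not overlap, and without untreated 2 it was 8. Shares of all genes without these libraries are not given, and groups with fewer libraries separate more easily.

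**Figure D1:**
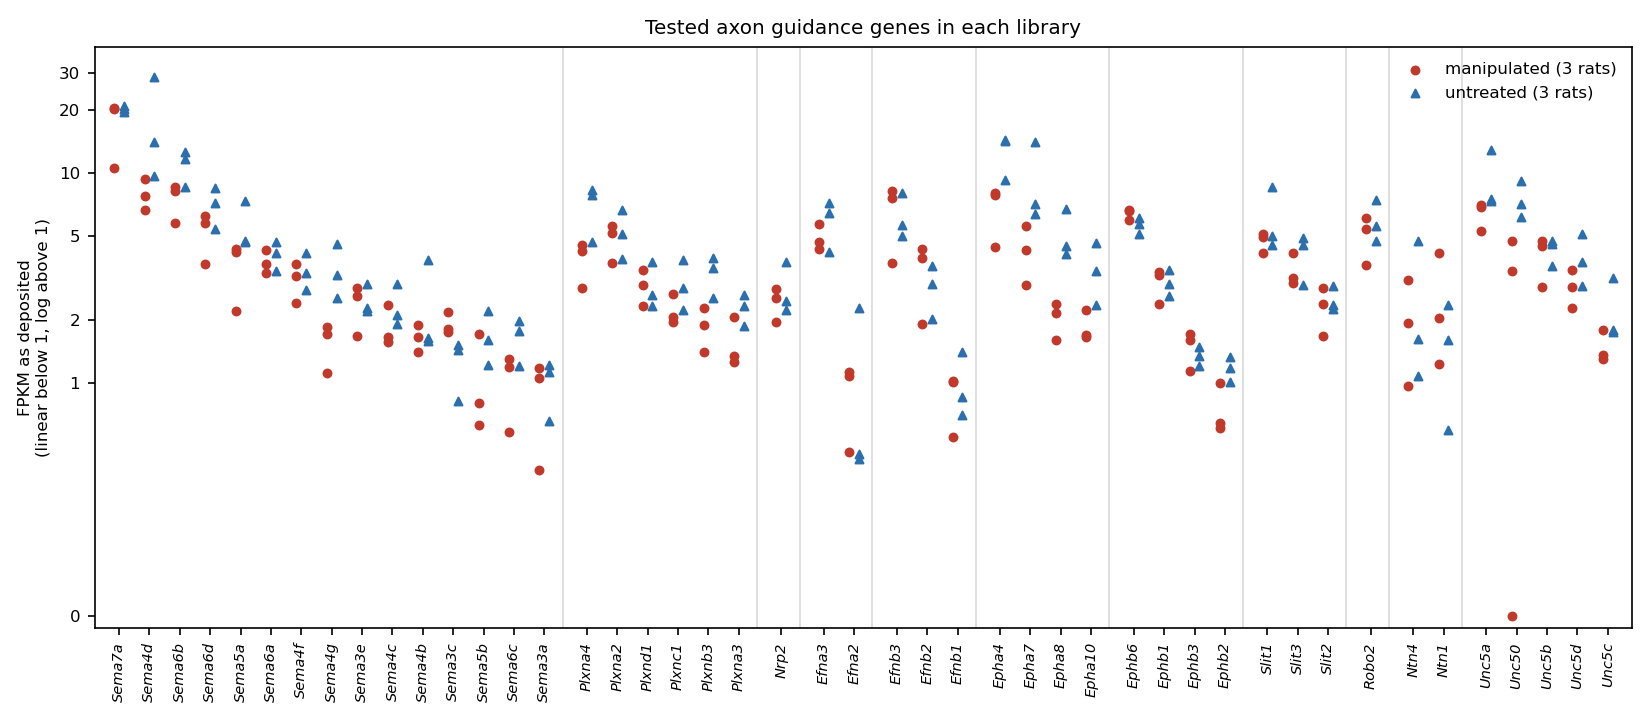
FPKM as deposited of the 46 tested axon guidance genes in each library, grouped by family from left to right, with circles for the 3 manipulated and triangles for the 3 untreated rats. The vertical axis is linear below 1 and logarithmic above. The circles of Epha4, Epha7, Epha8 and Epha10 lie below all their triangles, and those of Sema3c lie above.

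Marker genes of other brain regions differed between the groups as well, and their part in the results below was not tested. The summed FPKM of thalamic and hypothalamic neuron markers was 106.3, 106.7 and 64.8 in manipulated libraries, against 222.0, 231.1 and 288.2 in untreated ones. Of its 15 tested genes, 15 were lower and 10 passed the adjusted p as deposited, and 14 were lower and 8 passed it scaled (limma), among them under both Slc17a6, a vesicular glutamate transporter, with 1.28, 1.11 and 1.17 FPKM in manipulated and 10.8, 9.65 and 11.4 FPKM in untreated libraries. Pmch, the precursor of melanin-concentrating hormone, was at 0.125, 0.0815 and 0 FPKM in manipulated and at 20.1, 19.2 and 30.5 FPKM in untreated libraries. This list thus stood apart in all 6 libraries.

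The striatal medium spiny neuron list ran the other way. Its summed FPKM was 255.2, 264.7 and 107.8 in manipulated libraries, against 78.0, 71.2 and 103.0 in untreated ones, with 15 of 15 tested genes higher and 0 past the adjusted p as deposited (limma). Scaled, 15 of 15 were higher with an unadjusted p under 0.05, and 1 passed the adjusted p, Scn4b, a sodium channel subunit (limma adjusted p = 0.0246). The thalamic and the striatal sum each had an exact permutation p of 0.1 as deposited and scaled, two-sided, the smallest that 3 against 3 allows. All marker lists were chosen with earlier results of these data known, so the p-values of a list only describe it. The cortical glutamatergic list, which fits the labelled tissue, summed to 137.3, 164.1 and 102.9 in manipulated and 189.4, 128.6 and 156.1 in untreated libraries, with groups that overlapped. Scaled, those sums were 144.1, 163.9 and 158.1 in manipulated and 142.2, 133.9 and 123.9 in untreated libraries, higher without overlap (exact permutation p = 0.1). Hippocampal neuron markers, 3 of them tested, summed to 17.7, 16.8 and 11.6 in manipulated against 40.3, 22.3 and 18.0 in untreated libraries, lower without overlap as deposited (exact permutation p = 0.1) and overlapping once scaled. Sums of the lists for interneurons, oligodendrocytes and their precursors, astrocytes, microglia, vessels, meningeal fibroblasts and choroid plexus overlapped between the groups as deposited and scaled. Of their genes, 0 passed the adjusted p as deposited, and scaled it was 1, Slc32a1, the vesicular GABA transporter (limma adjusted p = 0.0363). All 9 tested choroid plexus genes were higher as deposited and scaled. The choroid plexus sums were 242.4, 1250.5 and 1012.9 in manipulated and 468.1, 462.3 and 470.8 in untreated libraries. Of the 12 tested interneuron genes, 7 were higher and 5 lower as deposited, and 9 and 3 scaled. Scaled, 7 higher and 1 lower of them had an unadjusted p under 0.05 (limma), against 6.46% and 4.8% of all genes.

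**Figure D2:**
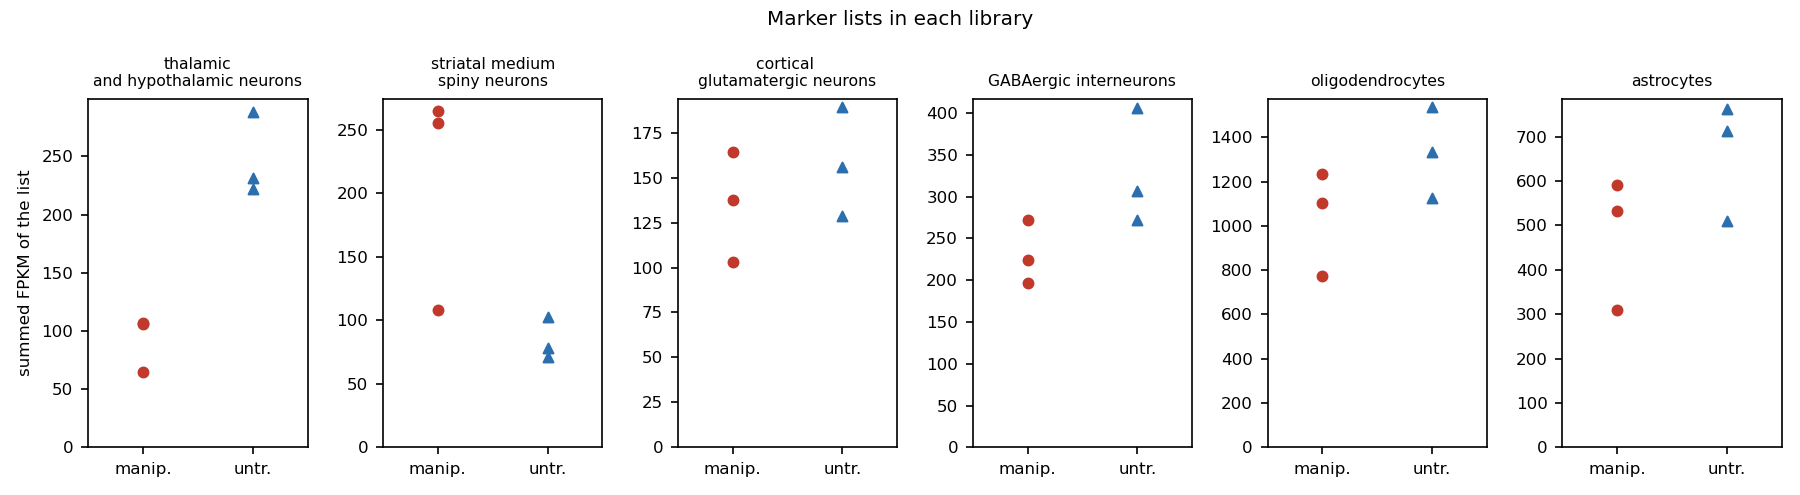
Summed FPKM per library of 6 marker lists, with circles for the 3 manipulated and triangles for the 3 untreated rats, and an axis from 0 in each panel. The thalamic and hypothalamic circles lie below all their triangles and the striatal circles above, while the other 4 lists overlap as deposited.

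Semaphorins were the family with most members, 20 in all, of which 18 had their own rows and 15 were tested. Sema7a, a membrane-anchored ligand of Plxnc1, had the highest mean among them, with 20.5, 20.2 and 10.6 FPKM in manipulated and 20.4, 19.5 and 21.0 FPKM in untreated libraries. Manipulated 6 alone was low, and the log2 fold change was -0.29 (SE 0.31, limma adjusted p = 0.536). With manipulated 6 left out it was 0.0073.

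Sema4d, a transmembrane ligand of Plxnb1 that oligodendrocytes make, had 7.76, 9.40 and 6.71 FPKM in manipulated and 14.1, 9.75 and 28.7 FPKM in untreated libraries. Untreated 3 stood far above the rest, and the highest manipulated value was close to the lowest untreated one. The log2 fold change was -0.93 (SE 0.37, limma adjusted p = 0.326), with -0.52 at the weakest when 1 library was left out. The row assembled for Sema4d was 4.00 times as long in the library where it was longest as where it was shortest, and it was shortest in untreated 3.

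Sema4g, a class 4 transmembrane semaphorin, had 1.71, 1.85 and 1.12 FPKM in manipulated and 3.28, 2.53 and 4.61 FPKM in untreated libraries. Its groups stayed apart beyond the deposited intervals, whose highest upper bound was 2.05 FPKM in manipulated and lowest lower bound 2.28 FPKM in untreated rats. The log2 fold change was -0.79 (SE 0.25, limma adjusted p = 0.309). After median-ratio scaling the values were 1.79, 1.85 and 1.72 in manipulated and 2.46, 2.64 and 3.66 in untreated libraries, still without overlap, with a log2 fold change of -0.48 (SE 0.14, limma adjusted p = 0.303).

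Sema3c, a secreted semaphorin bound by neuropilins and Plxnd1, had 1.75, 2.17 and 1.82 FPKM in manipulated and 1.52, 0.922 and 1.43 FPKM in untreated libraries. Every manipulated library was above every untreated one by a small margin (log2 fold change 0.35, SE 0.23, limma adjusted p = 0.373). Scaling widened the gap to 1.84, 2.17 and 2.79 in manipulated against 1.14, 0.961 and 1.14 in untreated libraries, with a log2 fold change of 0.64 (SE 0.15, limma adjusted p = 0.210). Its locus lay at chr4:14318168-14490795 of Rnor_6.0, the build of the deposited tables.

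Sema5a, a ligand of Plxnb3 with thrombospondin repeats, had 4.21, 4.37 and 2.21 FPKM in manipulated and 7.37, 4.78 and 4.73 FPKM in untreated libraries. The groups did not overlap, but manipulated 5 came close to untreated 3, and the log2 fold change was -0.54 (SE 0.28, limma adjusted p = 0.333). Sema6b, a transmembrane ligand of Plxna4, had 8.19, 8.61 and 5.81 FPKM in manipulated and 12.7, 8.55 and 11.7 FPKM in untreated libraries, so that its groups overlapped slightly (log2 fold change -0.49, SE 0.26, limma adjusted p = 0.333). Scaled, the same gene was level at 8.60, 8.61 and 8.92 in manipulated against 9.52, 8.91 and 9.33 in untreated libraries.

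The other 9 tested semaphorins, Sema3a, Sema3e, Sema4b, Sema4c, Sema4f, Sema5b, Sema6a, Sema6c and Sema6d, overlapped between the groups as deposited. Their log2 fold changes ran from -0.37 for Sema6d, a ligand of Plxna1, to -0.057 for Sema3e, which binds Plxnd1 without a neuropilin. After scaling, Sema3e and Sema4f joined Sema3c as the 3 semaphorins whose manipulated libraries were all higher, at 0.26 and 0.24. Some rows gave weak estimates: the interval of Sema3a, the classic repellent that binds neuropilin-1, reached from 0 to 39.6 FPKM in untreated 1, and the row of Sema6d varied 9.92 times in length between libraries.

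The tested ephrins showed no separation in either class. Efna3, a lipid-anchored ephrin-A, had 4.38, 5.74 and 4.70 FPKM in manipulated and 7.21, 6.47 and 4.23 FPKM in untreated libraries, with a log2 fold change of -0.21 (SE 0.25, limma adjusted p = 0.561) that was 0.17 after scaling. Efnb3, a transmembrane ephrin-B, had 8.24, 7.61 and 3.75 FPKM in manipulated and 8.09, 5.68 and 5.00 FPKM in untreated libraries, with a log2 fold change of 0.017 (SE 0.31, limma adjusted p = 0.969) and 0.40 after scaling. In both genes the spread among the rats of a group exceeded the difference between groups. Efna2, Efnb1 and Efnb2, an artery-associated ephrin-B, also overlapped, with log2 fold changes of -0.10, -0.089 and 0.17.

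Slits and netrins overlapped too. Slit1 had 4.17, 5.12 and 4.97 FPKM in manipulated and 8.64, 5.00 and 4.54 FPKM in untreated libraries, with untreated 1 alone high (log2 fold change -0.25, SE 0.26, limma adjusted p = 0.517; 0.14 after scaling). Slit2 and Slit3 lay at -0.098 and -0.19. Ntn4, a netrin of basement membranes, had 1.93, 3.09 and 0.985 FPKM in manipulated and 4.73, 1.08 and 1.62 FPKM in untreated libraries, a spread within each group that exceeded any difference (log2 fold change -0.13, SE 0.41, limma adjusted p = 0.826). Ntn1, the founding chemoattractant of the family, had 4.15, 2.05 and 1.24 FPKM in manipulated and 2.35, 1.60 and 0.798 FPKM in untreated libraries, with groups that overlapped (log2 fold change 0.39, SE 0.35, limma adjusted p = 0.473). Scaled, its lowest manipulated library was at 1.90 and its highest untreated library at 1.77.

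**Figure D3:**
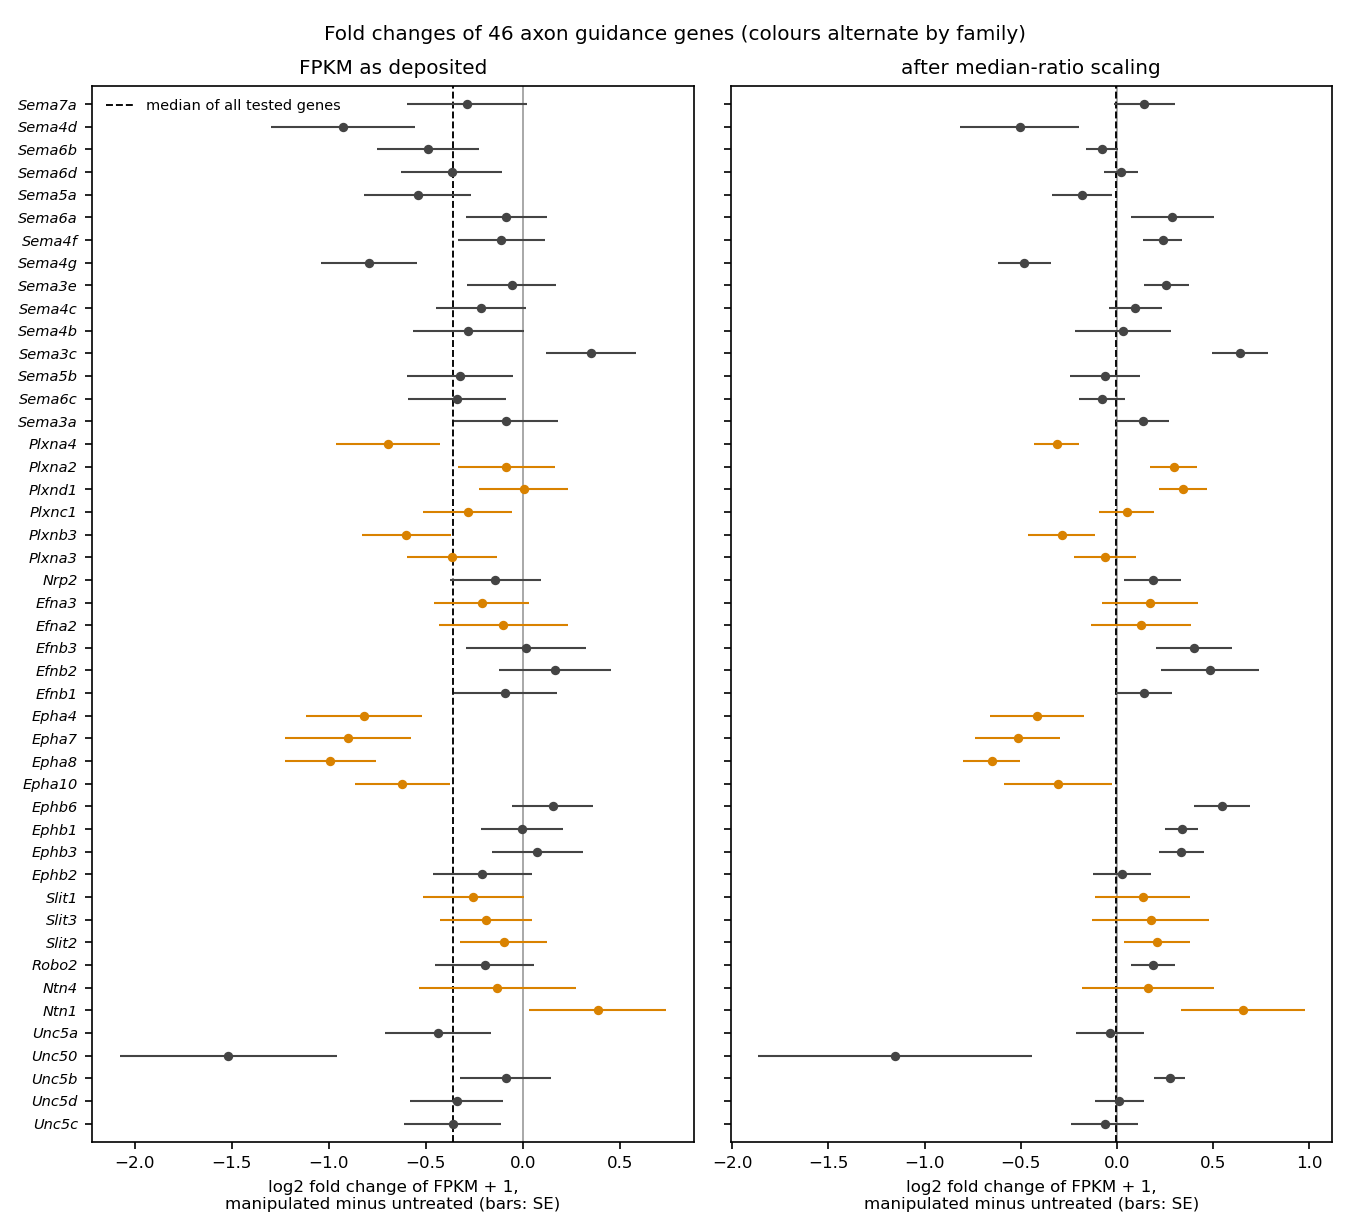
Log2 fold change of FPKM + 1, manipulated minus untreated, of the 46 tested axon guidance genes, with bars for the SE, as deposited on the left and after median-ratio scaling on the right. The dashed line marks the median of all tested genes, at -0.36 on the left and -0.0037 on the right, and the 4 EphA receptors lie left of it in both panels while Sema3c lies right of it.

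Among the receptor families, which by symbol also hold Unc50 and Unc5cl, 21 of 34 genes were tested. As deposited, 7 of the 21 were lower with an unadjusted p under 0.05, as were 2 of the 25 tested ligands, against 13.6% of all genes. Unc50, which is not a receptor, is among these 7 and enters the receptor medians. Scaled, it was 2 lower and 5 higher receptors and 1 lower and 1 higher ligand, against 4.8% and 6.46% of all genes. The median log2 fold change of receptors was -0.34 as deposited and 0.013 scaled, and that of ligands was -0.19 and 0.14. The difference between receptors and ligands was not tested.

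EphA receptors are tyrosine kinases that bind lipid-anchored ephrins and are known from the topographic mapping of sensory and thalamocortical projections. Epha8 had 2.15, 2.37 and 1.60 FPKM in manipulated and 6.74, 4.47 and 4.14 FPKM in untreated libraries. The highest upper interval bound of manipulated libraries, 2.77 FPKM, was below the lowest lower bound of untreated ones, 3.74 FPKM. The log2 fold change was -0.99 (SE 0.23, limma unadjusted p = 0.0021, adjusted p = 0.209), the smallest p among the members. Scaled values were 2.26, 2.37 and 2.46 in manipulated and 5.06, 4.66 and 3.29 in untreated libraries, with a log2 fold change of -0.65 (SE 0.15, limma adjusted p = 0.210).

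Epha7 had 4.31, 5.63 and 2.94 FPKM in manipulated and 14.02, 6.39 and 7.15 FPKM in untreated libraries. No manipulated rat reached an untreated one, although untreated 1 carried much of the difference. The deposited intervals met, up to 6.07 FPKM in manipulated and from 4.92 FPKM in untreated libraries. The log2 fold change was -0.90 (SE 0.33, limma adjusted p = 0.322), with -0.58 at the weakest when 1 library was left out. Scaled, the groups remained apart at 4.53, 5.62 and 4.51 in manipulated against 10.5, 6.65 and 5.68 in untreated libraries.

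Epha4, which binds ephrins of both classes and is abundant in the adult forebrain, had 7.89, 8.07 and 4.44 FPKM in manipulated and 14.2, 14.4 and 9.25 FPKM in untreated libraries. Its intervals were apart at 8.53 FPKM in manipulated and 8.75 FPKM in untreated libraries, and the log2 fold change was -0.82 (SE 0.30, limma adjusted p = 0.322). Scaling ended the separation, with 8.28, 8.07 and 6.82 in manipulated against 10.7, 15.0 and 7.35 in untreated libraries and a log2 fold change of -0.42 (SE 0.24, limma adjusted p = 0.547).

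Epha10, a family member without kinase activity, had 2.23, 1.69 and 1.66 FPKM in manipulated and 3.41, 4.67 and 2.36 FPKM in untreated libraries. Manipulated 4 lay just below untreated 3, with a log2 fold change of -0.62 (SE 0.25, limma adjusted p = 0.326), and they overlapped after scaling (-0.31, SE 0.28). All 4 EphA receptors thus lay below the shift of -0.36 as deposited and below 0 after scaling.

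EphB receptors bind transmembrane ephrins and are known at excitatory synapses. Ephb6, which lacks kinase activity, had 6.65, 6.57 and 6.01 FPKM in manipulated and 5.73, 5.14 and 6.14 FPKM in untreated libraries, with a log2 fold change of 0.15 (SE 0.21, limma adjusted p = 0.613). Scaled, it was higher in every manipulated library, at 6.98, 6.57 and 9.23 against 4.30, 5.35 and 4.88 in untreated libraries (0.55, SE 0.15, limma adjusted p = 0.274). Manipulated 6 carried the highest scaled value.

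Ephb1 was level as deposited, with 3.28, 3.39 and 2.38 FPKM in manipulated and 3.48, 2.59 and 2.98 FPKM in untreated libraries and a log2 fold change of -0.0038 (SE 0.21, limma adjusted p = 0.990). Scaled, it was 3.44, 3.38 and 3.65 in manipulated against 2.61, 2.70 and 2.36 in untreated libraries (0.34, SE 0.087, limma adjusted p = 0.259). Ephb3 gave a like picture, at 1.70, 1.60 and 1.14 FPKM in manipulated and 1.49, 1.21 and 1.34 FPKM in untreated libraries. Its log2 fold changes were 0.074 as deposited and 0.34 scaled. The deposited interval of Ephb3 in manipulated 6 was wide, from 0.221 to 2.06 FPKM. Ephb2 was lower in each manipulated library, at 0.807, 0.998 and 0.829 FPKM against 1.33, 1.01 and 1.17 FPKM in untreated libraries, and overlapped after scaling, with a log2 fold change of 0.028.

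The balance of both classes within a library does not depend on scaling between libraries. Summed over the 4 tested genes and the untested Epha1 and Epha2, EphA receptors had 16.7, 17.9 and 10.7 FPKM in manipulated and 38.6, 30.1 and 23.0 FPKM in untreated libraries. The 4 tested EphB receptors had 12.4, 12.6 and 10.4 FPKM in manipulated and 12.0, 9.94 and 11.6 FPKM in untreated libraries. The EphA sum over the EphB sum was therefore 1.34, 1.42 and 1.03 in manipulated libraries, against 3.21, 3.02 and 1.97 in untreated ones, with no overlap. This ratio was chosen after the values were seen, so it is given without a test, and it leaves out Epha3 and Epha5. Single pairs ran the same way: Epha8 over Ephb1 was 0.656, 0.700 and 0.673 in manipulated against 1.94, 1.73 and 1.39 in untreated libraries, and Epha4 over Ephb6 was 1.19, 1.23 and 0.739 in manipulated against 2.48, 2.81 and 1.51 in untreated libraries. The thalamic and hypothalamic marker sums given above were lower in the same 3 manipulated libraries.

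**Figure D4:**
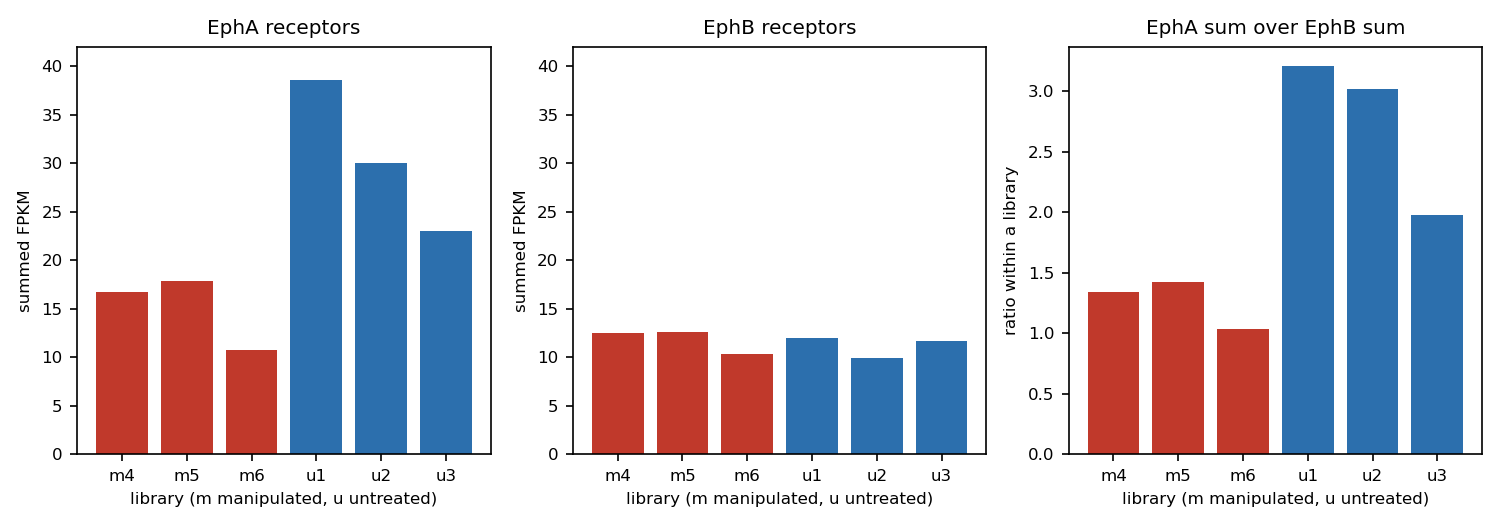
Summed FPKM of EphA receptors (left) and the 4 tested EphB receptors (middle), and the ratio of both sums within each library (right). The EphA sums hold the 4 tested genes and the untested Epha1 and Epha2. Manipulated libraries m4 to m6 stand left of untreated libraries u1 to u3, and all axes start at 0. EphA sums of 10.7 to 17.9 in manipulated rats lie below the 23.0 to 38.6 of untreated rats, while EphB sums overlap.

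The start regions of these receptors are shown because EphA and EphB genes differed in their balance within libraries. They are the 100 bases before the annotated start, 5′ to 3′, from RefSeq on the assembly GRCr8, a later build than that of the tables. Capitals mark the GC box GGGCGG and the CCAAT box CCAAT, each on either strand, and overlapping matches are joined. No window was found for Epha4.
Epha7 (chr5:47771793-47771892, plus strand): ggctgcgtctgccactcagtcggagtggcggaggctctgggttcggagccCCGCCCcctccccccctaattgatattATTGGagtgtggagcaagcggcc
Epha8 (chr5:154476967-154477066, minus strand): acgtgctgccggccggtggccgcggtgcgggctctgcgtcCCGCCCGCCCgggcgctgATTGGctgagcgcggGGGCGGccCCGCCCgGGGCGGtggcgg
Epha10 (chr5:142424196-142424295, plus strand): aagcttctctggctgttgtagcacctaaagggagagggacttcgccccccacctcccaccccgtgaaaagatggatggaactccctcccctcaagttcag
Ephb1 (chr8:111823760-111823859, minus strand): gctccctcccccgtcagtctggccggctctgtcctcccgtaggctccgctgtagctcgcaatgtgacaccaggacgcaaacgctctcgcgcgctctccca
Ephb2 (chr5:154360425-154360524, minus strand): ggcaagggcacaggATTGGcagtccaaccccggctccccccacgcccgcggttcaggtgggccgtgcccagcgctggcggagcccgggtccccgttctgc
Ephb3 (chr11:93363776-93363875, minus strand): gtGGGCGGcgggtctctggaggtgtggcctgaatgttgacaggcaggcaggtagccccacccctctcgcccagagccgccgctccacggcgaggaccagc
Ephb6 (chr4:71458532-71458631, plus strand): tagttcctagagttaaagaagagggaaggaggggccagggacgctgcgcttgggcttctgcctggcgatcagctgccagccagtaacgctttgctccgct
Within these 100 bases Epha8 held 5 GC boxes and 1 CCAAT box, Epha7 held 1 of each, Ephb2 held 1 CCAAT box, Ephb3 held 1 GC box, and Epha10, Ephb1 and Ephb6 held none of either. Over 250 bases the GC box occurred 2, 6 and 0 times in Epha7, Epha8 and Epha10, and 0, 0, 3 and 0 times in Ephb1, Ephb2, Ephb3 and Ephb6. Of the 69 members, 54 had a window of 250 bases, and 57.4% of these held a GC box, against 30.5% of all 33469 RefSeq windows and 38.9% of windows of protein-coding genes. The TATA box TATAAA was in 0 of 54, against 12.9% of all windows, the CCAAT box in 31.5% against 34.0%, and the E-box CACGTG in 7.41% against 5.59%. Members' windows had a median GC content of 63.2%, against 54% for protein-coding genes, which moves with the count of GC boxes. These matches describe letters and not bound sites.

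Few members are neighbours on a chromosome. Epha8 and Ephb2 lie 89.0 kb apart on chromosome 5 of Rnor_6.0, at chr5:155293646-155316530 and chr5:155022486-155204640, and their log2 fold changes were -0.99 and -0.21. The only other members within 200 kb of each other were Efna1, Efna3 and Efna4 on chromosome 2, of which Efna3 alone was tested.

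Plexins are the signalling receptors of semaphorins. Plxna4, which carries Sema3a signals with neuropilin-1, had 4.56, 4.24 and 2.83 FPKM in manipulated and 8.35, 4.69 and 7.88 FPKM in untreated libraries. The groups did not overlap, as deposited (log2 fold change -0.69, SE 0.27, limma adjusted p = 0.326) or scaled, at 4.78, 4.24 and 4.34 in manipulated against 6.27, 4.89 and 6.25 in untreated libraries (-0.31, SE 0.12, limma adjusted p = 0.409).

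Plxnb3, a Sema5a receptor, had 1.89, 2.27 and 1.41 FPKM in manipulated and 3.96, 3.52 and 2.55 FPKM in untreated libraries, apart as deposited (-0.60, SE 0.23, limma adjusted p = 0.326) and overlapping after scaling (-0.29, SE 0.17). Plxna3 had 2.07, 1.25 and 1.35 FPKM in manipulated and 2.62, 1.87 and 2.33 FPKM in untreated libraries, with groups that overlapped (-0.36, SE 0.23, limma adjusted p = 0.366). Plxnd1, the receptor of Sema3e, had 3.47, 2.94 and 2.33 FPKM in manipulated and 3.79, 2.33 and 2.63 FPKM in untreated libraries, level as deposited (0.0063, SE 0.23, limma adjusted p = 0.985). It was higher in each manipulated library once scaled (0.35, SE 0.12, limma adjusted p = 0.392).

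Plxna2, a receptor of Sema6a, and Plxnc1, the receptor of Sema7a, overlapped as deposited at -0.085 and -0.28. Plxna2 was higher in each manipulated library after scaling, at 0.30, while Plxnc1 still overlapped. Nrp2, the binding receptor for Sema3f, had 2.80, 2.55 and 1.95 FPKM in manipulated and 3.76, 2.47 and 2.23 FPKM in untreated libraries, without separation (log2 fold change -0.14, SE 0.23, limma adjusted p = 0.679; 0.19 after scaling).

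Robo2, the 1 tested Slit receptor, had 6.12, 5.40 and 3.67 FPKM in manipulated and 7.45, 4.73 and 5.59 FPKM in untreated libraries, without separation (log2 fold change -0.19, SE 0.26, limma adjusted p = 0.604; 0.19 after scaling). Its interval in untreated 3 reached down to 0.358 FPKM. Slit1, Slit2, Slit3 and Robo2, the tested genes of this pair of families, thus overlapped between the groups as deposited and scaled.

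Unc5 receptors mediate repulsion by netrins and can trigger cell death without their ligand. Unc5a had 6.87, 7.06 and 5.29 FPKM in manipulated and 12.9, 7.54 and 7.39 FPKM in untreated libraries, just apart as deposited (log2 fold change -0.44, SE 0.27, limma adjusted p = 0.358) and level after scaling (-0.035). Unc5b, known from vessel endothelium, had 4.50, 4.77 and 2.86 FPKM in manipulated and 4.74, 3.60 and 4.58 FPKM in untreated libraries (-0.089, SE 0.23, limma adjusted p = 0.796). Scaled, it was higher in all 3 manipulated libraries, at 4.72, 4.77 and 4.39 against 3.56, 3.75 and 3.64 in untreated libraries (0.27, SE 0.080, limma adjusted p = 0.304). Unc5c and Unc5d overlapped under both, at -0.36 and -0.34 as deposited.

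Unc50, caught by its symbol, was listed at 0 FPKM in manipulated 4 and at 4.74 and 3.42 FPKM in the other manipulated libraries, against 7.16, 6.20 and 9.15 FPKM in untreated ones. Whether that 0 is a failed estimate could not be settled, and no other row of that library covers the gene. Its log2 fold change of -1.52 (SE 0.56, limma adjusted p = 0.323) rests in part on that value and was -0.74 without manipulated 4. Without Unc50 the members had 8 lower genes with an unadjusted p under 0.05 and a median of -0.21.

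Of the 23 members that were not tested, 10 had a mean below 1 FPKM. Epha1 was listed at 0 in all 6 libraries and Unc5cl at no more than 0.0106 FPKM. Efna4, Epha2, Ntn5, Robo3, the endothelial Robo4, Sema3b, Sema3d and Sema3g lay between 0.0535 and 1.26 FPKM in manipulated and between 0.0737 and 1.46 FPKM in untreated libraries. Robo3, a Robo receptor of commissural axons, was lower in each manipulated library, at 0.792, 0.344 and 0.551 FPKM against 0.951, 1.08 and 0.798 FPKM in untreated libraries, while the other 7 overlapped.

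Epha5, an EphA receptor of the forebrain, was left out because its estimate in untreated 1 was marked as failed. Its listed values were 5.62, 5.40 and 4.30 FPKM in manipulated and 16.6 (the failed one), 5.54 and 9.24 FPKM in untreated libraries. Without that value, manipulated 4 was slightly above untreated 2, so that Epha5 did not separate the groups in the way the 4 tested EphA receptors did.

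A further 6 members, Efna1, Ephb4, Plxna1, Plxnb1, Robo1 and Sema4a, were joined in a row with a neighbour in some libraries, and another 6, Efna5, Epha3, Nrp1, Ntn3, Plxnb2 and Sema3f, in every library, so that their fragments could not be told apart from the neighbour's. With joined rows counted for the member, 0 of the added genes passed the adjusted p (limma). Epha3, joined with a U4 RNA gene, then had 1.06, 1.01 and 0.411 FPKM in manipulated and 2.52, 0.744 and 0.907 FPKM in untreated libraries, with groups that overlapped. Nrp1, the Sema3a receptor, had 1.73, 1.81 and 2.26 FPKM in manipulated and 3.54, 2.06 and 2.02 FPKM in untreated libraries and overlapped as well. Efna5, the main ephrin-A ligand of forebrain maps, had 2.47, 2.21 and 1.49 FPKM in manipulated and 1.31, 1.29 and 1.80 FPKM in untreated libraries. Its groups overlapped as deposited, with a log2 fold change of 0.30. Scaled, the log2 fold change of Efna5 was 0.59 (limma unadjusted p = 0.0047, adjusted p = 0.248).

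Only 3 members passed the adjusted p under any alternative tried, and each count was below the share of all genes that passed. With a weight estimated for each library, Epha8, Sema4d and Sema4g passed (limma adjusted p = 0.0345, 0.0452 and 0.0363), against 8.82% of all genes. This fit gave manipulated 4 a weight of 6.11 and manipulated 6 a weight of 0.234. With genes above 0 in all libraries, 1 member passed, Epha8 (limma adjusted p = 0.0145), against 4.34% of all genes. Over all alternatives the adjusted p of Epha8 ran from 0.0145 to 0.633.

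The genes that work with these ligands and receptors were also read. Of 109 listed co-receptors, other cues and intracellular effectors, 89 were tested, and 79 were lower and 10 higher in manipulated rats, while 9271 of all 10657 tested genes were lower. At an unadjusted p under 0.05 there were 14 lower and 0 higher, against 13.6% and 1.46% of all genes. Scaled, 39 were lower and 50 higher, with 7 lower and 11 higher at that p, against 4.8% and 6.46% of all genes. Their median log2 fold change was -0.35 as deposited, against -0.36 for all genes, and 0.052 scaled. The only one past the adjusted p as deposited was Ntng1, a netrin-related membrane protein that in mice lines thalamocortical axons and that is also in the thalamic marker list. Ntng1 had 3.13, 3.29 and 1.07 FPKM in manipulated and 9.37, 12.6 and 15.3 FPKM in untreated libraries (log2 fold change -1.99, SE 0.33, limma adjusted p = 0.0462; -1.65 with an adjusted p of 0.147 after scaling).

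Co-receptors gave 0 of 9 tested genes past the adjusted p, 8 lower and 1 higher, with the smallest unadjusted p for Ret, the receptor of GDNF-family ligands (-0.83, limma adjusted p = 0.299), and Chl1, an adhesion partner of neuropilin-1 (-0.58, adjusted p = 0.330). Dcc, a netrin receptor picked here for that role, had 2.70, 2.30 and 1.37 FPKM in manipulated and 3.55, 1.70 and 2.78 FPKM in untreated libraries and overlapped. Other cues gave 1 of 14 past it, with 11 lower and 3 higher, and after Ntng1 came Ryk, a Wnt receptor (-0.72, limma adjusted p = 0.309). Dcc, like Robo2 and Nrp2, thus showed no separation.

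Direction counts in the lists turned with the scaling. Co-receptors had 4 lower and 5 higher genes once scaled, other cues 5 and 9, semaphorin effectors 9 and 10, ephrin effectors 8 and 10, Slit and netrin effectors 9 and 10, and shared cytoskeletal effectors 4 and 6, with 0 past the adjusted p in each (limma). The summed level of the ephrin effectors was then 215.7, 210.1 and 218.5 in manipulated and 180.9, 186.6 and 181.7 in untreated libraries, higher without overlap (exact permutation p = 0.1). That p only describes the list, which was chosen with earlier results of these data known.

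As deposited, semaphorin effectors gave 0 of 19 past the adjusted p, 17 lower and 2 higher, led by Cdk5, a kinase of the collapsin response mediator proteins (-1.08, limma adjusted p = 0.215), and Dpysl3, one of those proteins (-0.48, adjusted p = 0.326). Ephrin effectors gave 0 of 18, 16 lower and 2 higher, led by Vav3 (-1.01, limma adjusted p = 0.209), and Rasa1, a Ras-inactivating protein (-0.96, adjusted p = 0.309). Slit and netrin effectors gave 0 of 19, 18 lower and 1 higher, led by Srgap2, which binds Robo receptors (-0.64, limma adjusted p = 0.326), and Pitpna, a lipid transfer protein of netrin signalling (-0.80, adjusted p = 0.326). Shared cytoskeletal effectors gave 0 of 10, 9 lower and 1 higher, led by Cdc42, a small GTPase (-1.17, limma adjusted p = 0.270), and Gap43, a growth cone protein (-0.81, adjusted p = 0.326). Vav3 had 1.30, 1.23 and 0.783 FPKM in manipulated and 4.12, 2.59 and 3.09 FPKM in untreated libraries, without overlap.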

How the data were processed

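The authors deposited FPKM values. Per the submitters' processing notes, STAR 2.7.3a, Cufflinks and the build Rnor_6.0 were used. The file headers show Cufflinks gene tables with interval bounds and a status beside each FPKM of the authors. Annotation release, strandedness and the Cufflinks version are not given in the sources read here, so antisense reads cannot be told apart. FPKM is scaled within a library, and read depth is unknown. As a measure of precision, the lower bound of the deposited interval lay 4.23% to 100% below a tested member's value (median 8.89%). Lower bounds do not go below 0, so the upper side can be wider. Among the tested members whose groups did not overlap as deposited, only Epha4, Epha8, Sema4g and Unc50 also had intervals apart. Sema3a in untreated 1, at 1.13 FPKM, had an upper bound of 39.6 FPKM.

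FPKM was summed per symbol and library. Symbols joined with another gene in a row (3254), found in several places (144), absent from some library (32) or with a failed estimate (5) were left out, which kept 26641 of 30076, and genes with a mean of at least 1 FPKM were tested. The test was limma 3.58.1 (R 4.3.3) on log2(FPKM + 1), two-sided, with a trend of variance on mean and Benjamini-Hochberg adjustment over all 10657 tested genes. Log2 fold changes are manipulated minus untreated and understate the change of low genes. The limma p-values rest on the spread between the rats' 3 and 3 libraries, with each gene's variance drawn toward that trend over all tested genes. The deposited intervals do not enter them. The fit was tried on simulated log2 values, drawn independently for each gene. Those values had no shift between libraries, unlike the deposited ones, so that trial does not cover the shift. Marker sums were compared by an exact permutation test, two-sided. The 12 marker lists and 6 pathway lists, like the families of the members, were chosen with earlier results of these data known. Full values are given for members past the adjusted p, the 14 with the smallest unadjusted p and the highest of each family. Ephb1, Ephb3, Plxnd1 and Unc5b, Ntn1 and the other genes given in full were chosen after their values were seen, and list genes are the 2 with the smallest p, those past the adjusted p and Dcc. Alternatives covered the pseudocount, filter, scaling, variance model, weights, genes kept and leaving out each library. Joined rows kept, and median-ratio scaling with 1 library left out, were chosen after the data were seen. Figures were made with Python 3.11.15 and matplotlib 3.10.9.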

Additional observations from a re-analysis of the deposited data

How the results depend on the processing

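Of 484 values of 26 named members under the alternatives, 447 kept their direction and side of the threshold, 33 turned direction and 4 passed the adjusted p. Median-ratio and upper-quartile scaling turned the median of the members to 0.13 and 0.12, and the log2 fold changes of Efna3 to 0.17 and 0.16, Ephb1 to 0.34 and 0.32, Nrp2 to 0.19 and 0.17, Ntn4 to 0.16 and 0.15, Robo2 to 0.19 and 0.17, Sema7a to 0.14 and 0.12, Slit1 to 0.14 and 0.12, and Unc5b to 0.27 and 0.26. Scaling itself sets that turn, since it removes a shift of -0.36. Weights per library turned Ephb1 to 0.071 and Nrp2 to 0.030, and 3 members then passed the adjusted p and 2 higher ones an unadjusted p of 0.05. With genes above 0 in all libraries, 1 passed. Either scaling left 3 lower and 6 higher members at an unadjusted p under 0.05, and 5 lower (median-ratio) or 7 lower (upper-quartile) and 10 higher ones whose groups did not overlap. A mean of at least 3 FPKM left 0 higher members without overlap, because Sema3c was below it. Leaving out 1 library gave 0 to 0 members past the adjusted p (limma), 2 to 7 lower and 0 to 0 higher at an unadjusted p under 0.05, 12 to 18 lower and 1 to 4 higher without overlap, and a median of -0.32 to -0.11. On scaled values it gave 2 to 5 lower and 5 to 7 higher members at that p. It also gave 5 to 9 lower and 11 to 15 higher ones without overlap, and a median of 0.0037 to 0.12. Shares of all genes without a library are not given, so these counts are not a result about the members. Groups with fewer libraries separate more easily, and as deposited the count without overlap can only stay or rise. The log2 fold changes that turned on leaving out 1 library ran from -0.16 to 0.32 for Efnb3, -0.081 to 0.12 for Ephb1, -0.25 to 0.028 for Nrp2, -0.43 to 0.30 for Ntn4, -0.10 to 0.16 for Plxnd1, -0.44 to 0.0073 for Sema7a and -0.20 to 0.093 for Unc5b. The cause of the moves without a library was not tested. The 4 EphA receptors kept their sign under all alternatives run. No paired analysis was possible because the groups share no replicate numbers. Biotypes for the protein-coding alternative covered 86.7% of tested genes.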

Other observations

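In 2 members a row joined with a neighbour held a value far from the gene's own rows, chosen after the values were seen. Plxna1, a plexin that binds Sema6d, had 3.94, 3.10 and 2.73 FPKM in manipulated libraries and 5.72 and 3.60 FPKM in untreated 1 and 2, but 15.7 FPKM in untreated 3, where its row was joined with Chchd6. Ephb4, the venous ephrin-B2 receptor, had 0.362 and 0.422 FPKM in manipulated 4 and 5 and 0.753, 0.285 and 0.374 FPKM in untreated libraries, but 6.24 FPKM in manipulated 6, where its row was joined with Ache and Ufsp1. Neither value was used in a comparison of the tested members.

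The spread between untreated rats was of like size in the members and in all genes. Between manipulated rats it was smaller in the members, a difference that was not tested. The median SD of log2(FPKM + 1) over members was 0.22 in manipulated and 0.29 in untreated rats, and over all tested genes it was 0.31 in manipulated and 0.28 in untreated rats.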
